A study of Mus musculus with 11 samples.

Results

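The 10 genes described here encode enzymes, and 1 helper protein, that turn arachidonic acid into prostaglandins, thromboxane and leukotrienes: Ptgs1, Ptgs2, Ptges, Ptgds, Hpgds, Ptgis, Tbxas1, Alox5, Alox5ap and Ltc4s. They were taken by gene symbol from the 32285 genes of the count matrices, and all 10 were found. The data were single-cell RNA sequencing libraries (10x Genomics 3′ chemistry) of the right brain, 1 library per mouse, 11 in all. The sham + WT group held 3 mice (replicates 1, 2 and 3) and the MCAO/R + WT group 2 (replicates 1 and 2). The sham + Lrg1-/- and MCAO/R + Lrg1-/- groups held 3 mice each (replicates 1, 2 and 5). The study's methods give WT mice as male C57BL/6 of 8 to 10 weeks; they give Lrg1-/- mice as backcrossed for 4 generations to C57BL/6N and aged 3 months, and the sex of these mice is not given in the sources used here. Lrg1-/- mice carried a conventional deletion of Lrg1, so every cell of the body lacked the gene from the start of development. MCAO/R mice had the middle cerebral artery occluded and then reperfused; the study's methods list several reperfusion times and tie none to the sequenced mice, and its discussion speaks of 1 hour. Red blood cells were lysed during cell preparation in all groups.

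Free arachidonic acid is oxidised along separate routes. The cyclooxygenases, Ptgs1 (COX-1, made constantly in many cells) and Ptgs2 (COX-2, rapidly induced by inflammatory signals and by neuronal activity), make prostaglandin H2, which terminal synthases convert further: Ptges to prostaglandin E2, Ptgds and Hpgds to prostaglandin D2, Ptgis to prostacyclin and Tbxas1 to thromboxane A2. In the other route 5-lipoxygenase, encoded by Alox5, works with its activating protein Alox5ap to make leukotriene A4, and Ltc4s joins it to glutathione to form leukotriene C4. Prostaglandin E2 from brain endothelium mediates fever, prostacyclin and thromboxane have opposed effects on vessel tone and platelets, and leukotrienes attract leukocytes and open vessels.

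Each level below is given as CPM, counts per 1e+06 UMIs of all cells of 1 cell type in 1 library, after TMM scaling across libraries within that cell type. A UMI is a tag that counts each captured RNA molecule once. Cells were kept with more than 500 genes, more than 1000 UMIs and less than 25% mitochondrial UMIs. Of 155804 barcodes 132437 passed, and 126019 remained after removal of likely doublets. Cell types carry the ending "-like" because they were named from marker genes. None of the 10 genes entered the clustering, and 25795 cells stayed unnamed. Among WT mice 8.16% of cells were unnamed after sham surgery and 4.34% after MCAO/R. The corresponding percentages among Lrg1-/- mice were 15.7% and 35.2%, and 1 library (MCAO/R + Lrg1-/- replicate 5) held 16251 of the unnamed cells. Unnamed cells with microglia as best or second type, left out because a second type scored close, were 0.61% of sham + WT and 1.78% of MCAO/R + WT cells. Among Lrg1-/- mice they were 2.37% after sham surgery and 5.86% after MCAO/R. The microglia-like sets thus leave out unequal shares of such cells, and the part of this in levels and UMI shares was not tested.

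The libraries held between 37159497 and 171813031 UMIs. Lrg1 itself had 177 to 652 UMIs in the sham + WT libraries and 15788 and 17374 in the MCAO/R + WT libraries, against 0 in 5 of the 6 Lrg1-/- libraries and 1 in the other. Markers of choroid plexus epithelium and of red blood cells set the genotypes apart in every cell type: the summed level of either list was higher in every Lrg1-/- library than in every WT library in 14 of 14 other cell types. The same held for the microglia list in 7 of 14 cell types and for the oligodendrocyte list in 0. No label names a preparation batch, so genotype and preparation cannot be told apart. The 3 sham + Lrg1-/- libraries and MCAO/R + Lrg1-/- replicate 1 were deposited with round numbers of barcodes (15500, 9000, 5650 and 8500) and with at least 551 to 770 UMIs per barcode, whereas in the other 7 libraries the lowest barcode had 500. These 4 libraries also held the fewest UMIs (37159497 to 70976468). Cell numbers and UMI shares compared between genotypes include this difference, and its part in them was not tested. The labels number the samples separately, and the p-values measure the spread between these samples.

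Promoter sequence is shown for 4 genes on which the results turn: Ptgs2 and Ptges, which rose after MCAO/R in microglia-like and endothelial-like cells of WT mice, and Ptgs1 and Hpgds, which fell in the microglia-like cells of the same mice. The sequences are from RefSeq (GRCm38.p6), which gave starts for 8 of the 10 genes. Each is the 250 bases before the start of the gene, 5′ to 3′ on the strand of the gene. Capitals mark a GC box (GGGCGG) in Ptgs2 and Ptges and an ETS core (GGAAGT) in Ptgs1 and Hpgds.
Ptgs2 (chr1:150099781-150100030, plus strand): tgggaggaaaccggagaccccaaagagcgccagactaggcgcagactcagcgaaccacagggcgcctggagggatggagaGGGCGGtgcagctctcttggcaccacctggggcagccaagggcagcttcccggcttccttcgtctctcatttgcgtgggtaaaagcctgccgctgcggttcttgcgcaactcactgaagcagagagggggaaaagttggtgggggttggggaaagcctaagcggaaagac
Ptges (chr2:30903298-30903547, minus strand): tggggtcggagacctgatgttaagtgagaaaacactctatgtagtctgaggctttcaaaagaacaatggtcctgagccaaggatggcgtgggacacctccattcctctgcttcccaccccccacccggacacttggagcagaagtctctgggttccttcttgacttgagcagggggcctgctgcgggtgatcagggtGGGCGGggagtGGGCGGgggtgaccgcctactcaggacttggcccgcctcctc
Ptgs1 (chr2:36230176-36230425, plus strand): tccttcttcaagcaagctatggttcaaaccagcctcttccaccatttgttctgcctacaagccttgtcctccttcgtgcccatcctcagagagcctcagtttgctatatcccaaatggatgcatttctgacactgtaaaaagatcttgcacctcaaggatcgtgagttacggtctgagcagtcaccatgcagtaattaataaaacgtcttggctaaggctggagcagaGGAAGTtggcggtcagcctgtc
Hpgds (chr6:65144731-65144980, minus strand): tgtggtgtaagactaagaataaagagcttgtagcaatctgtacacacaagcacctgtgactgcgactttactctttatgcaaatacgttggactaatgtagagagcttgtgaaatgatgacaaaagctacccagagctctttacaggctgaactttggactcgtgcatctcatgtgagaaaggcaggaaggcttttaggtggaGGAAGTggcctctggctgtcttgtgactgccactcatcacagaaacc

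The windows of Ptgs2 and Ptges held 61.6% and 59.6% G and C, and those of Ptgs1 and Hpgds 48% and 45.2%. The median over 32544 RefSeq promoters was 52.4%. In Ptgs2 the first 30 bases from the start (chr1:150100031-150100060) also held an E-box (CACGTG) at position 17, counted from 1 at the start, and TGACG, the core of the cyclic AMP response element, at position 14 on the opposite strand. The matches overlap, and capitals mark the stretch they cover together.
Ptgs2 from the start: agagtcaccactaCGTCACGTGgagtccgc
The 5 motifs were searched on both strands, over 250 bases before and 50 after each start. CACGTG was present in 7.17% of all promoters, TGACG in 20.9%, GGGCGG in 35.9%, GGAAGT in 23.7% and TATAAA in 13.6%. These matches describe letters in a window and not a bound site.

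All 10 genes are annotated as protein coding in GENCODE M21 (GRCm38). Ptgs1 lies at chr2:36230426-36252272 on the plus strand, Ptges at chr2:30889471-30929863, Ptgds at chr2:25466709-25470046 and Ptgis at chr2:167191805-167240604, these last on the minus strand. Ptgs2 lies at chr1:150100031-150108227 (plus) and Alox5ap at chr5:149264767-149288153 (plus). On chromosome 6 Tbxas1 lies at 38875404-39084585 (plus), Hpgds at 65117293-65144908 (minus) and Alox5 at 116410077-116461178 (minus). Ltc4s lies at chr11:50236461-50238616 (minus). The RefSeq starts of Ptges and Hpgds lie inside these spans.

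The highest cell type of each gene was taken from the mean over all libraries with at least 20 cells of the type. For neutrophil-like cells these were 4 libraries, all MCAO/R, and for fibroblast-like cells 7, none of them sham + Lrg1-/-. Neighbouring types were ordered by these means and then tested in the same libraries. The p-values of these comparisons do not allow for that choice and only describe how steady the order was. Ptgs1 and Hpgds, and Tbxas1 with them, were highest in microglia-like cells. Ptgs1 averaged 280.2 CPM there and 87.4 CPM in border-associated macrophage-like cells, the next type, and was higher in microglia-like cells in 11 of 11 libraries (adjusted p = 0.00977, two-sided exact sign-flip permutation test of the log2 ratio within libraries, Benjamini-Hochberg over 30 such comparisons of neighbouring types). Hpgds averaged 434.9 CPM in microglia-like and 312.9 CPM in border-associated macrophage-like cells and was higher in the former in 11 of 11 libraries (adjusted p = 0.00977, same exact test). Tbxas1 averaged 800.3 and 566.0 CPM in the same types, higher in microglia-like cells in 10 of 11 libraries (adjusted p = 0.0130, same exact test), and 173.1 CPM in monocyte-like cells. The prostaglandin D2 synthase of blood-derived cells, Hpgds, and the thromboxane synthase were thus both highest in microglia-like and next in border-associated macrophage-like cells. Hpgds averaged 77.66 CPM in red blood cell-like and 74.24 CPM in monocyte-like cells.

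Alox5 and Alox5ap were highest in neutrophil-like cells. Alox5 averaged 108.8 CPM in neutrophil-like cells, 26.93 CPM in border-associated macrophage-like cells and 15.77 CPM in microglia-like cells. Neutrophil-like cells passed the minimum of 20 cells in 4 libraries only, and Alox5 was higher there than in border-associated macrophage-like cells in 4 of 4, where the smallest p the exact test can give is 0.125. Alox5ap averaged 2109 CPM in neutrophil-like cells, 570.9 CPM in monocyte-like cells, 271.1 CPM in border-associated macrophage-like cells and 206.6 CPM in microglia-like cells. The last pair did not differ beyond its spread (higher in 7 of 11 libraries, adjusted p = 0.272, exact permutation test). Ltc4s averaged 277.3 CPM in border-associated macrophage-like, 269.8 CPM in microglia-like and 212.7 CPM in choroid plexus epithelium-like cells, and neither step held up against the spread between libraries (8 of 11 libraries, adjusted p = 0.805, and 6 of 11 libraries, adjusted p = 0.171, exact permutation tests). The latter count joins genotypes that differed: Ltc4s was higher in microglia-like than in choroid plexus epithelium-like cells in 5 of 5 WT libraries and in 1 of 6 Lrg1-/- libraries, a split seen in the values and not tested.

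Ptgis was highest in smooth muscle-like cells and Ptges and Ptgds in fibroblast-like cells. Ptgis averaged 209.1 CPM in smooth muscle-like cells and 72.41 CPM in fibroblast-like cells, higher in smooth muscle-like cells in 7 of 7 libraries (adjusted p = 0.0312, exact permutation test). Ptges averaged 132.7 CPM in fibroblast-like, 28.39 CPM in pericyte-like and 25.73 CPM in endothelial-like cells. It was higher in fibroblast-like than in pericyte-like cells in 7 of 7 libraries (adjusted p = 0.0312), whereas pericyte-like and endothelial-like cells did not differ beyond their spread (5 of 9 libraries, adjusted p = 0.857, exact permutation tests). Ptgds averaged 16764 CPM in fibroblast-like cells and 9932 CPM in oligodendrocyte-like cells, and these did not differ beyond their spread (4 of 7 libraries, adjusted p = 0.857). Choroid plexus epithelium-like cells followed with 2127 CPM, below oligodendrocyte-like cells in 11 of 11 libraries (adjusted p = 0.00977, exact permutation tests). Ptgs2 had no single leading type: it averaged 227.1 CPM in neutrophil-like, 156.0 CPM in endothelial-like, 151.7 CPM in monocyte-like and 114.6 CPM in fibroblast-like cells, and no neighbouring pair among these 4 differed beyond its spread (adjusted p = 1.0, 0.5995 and 0.3375, exact permutation tests). The neutrophil-like mean is of MCAO/R libraries only, 283.9 CPM in WT and 170.3 CPM in Lrg1-/- mice. Monocyte-like cells averaged 225.7 CPM (1 library) and 270.8 CPM in the same groups.

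**Figure D1:**
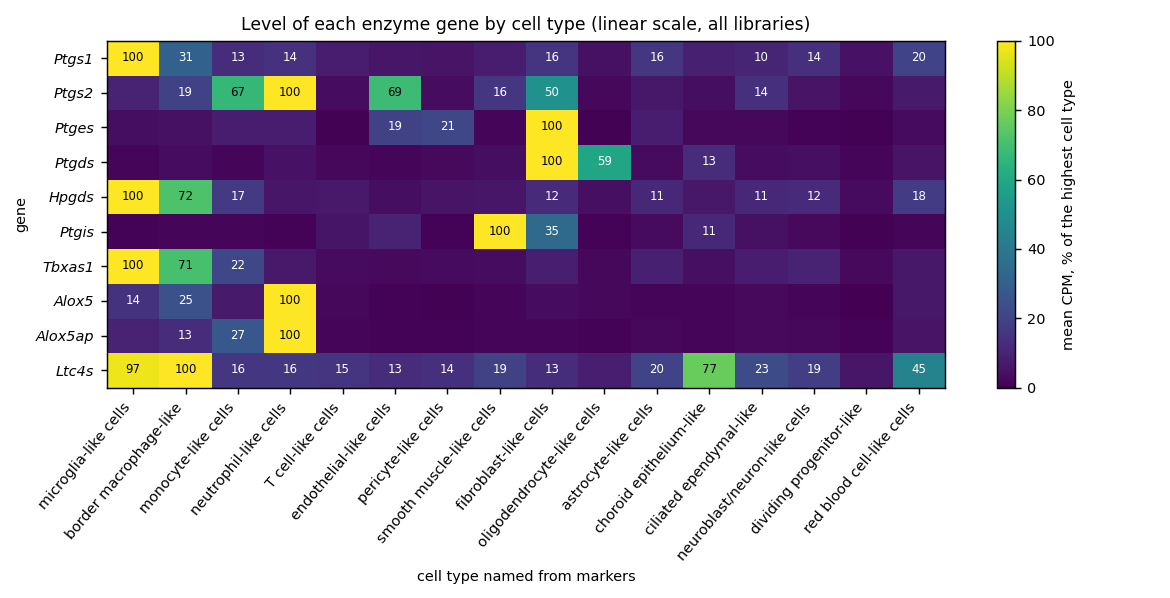
Mean CPM of each gene (rows) in 16 cell types named from markers (columns), over all libraries with at least 20 cells of the type, as a percentage of the gene's highest cell type. Numbers are printed from 10% upward. Ptgs1, Hpgds and Tbxas1 peak in microglia-like cells, Alox5 and Alox5ap in neutrophil-like cells, Ptgis in smooth muscle-like cells and Ptges and Ptgds in fibroblast-like cells.

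The cells that carried most UMIs of a gene were not always those with the highest level, because a share joins level and number of cells. In the sham + WT group microglia-like cells carried 89.5% of Ptgs1 UMIs, 88.9% of Hpgds, 89.5% of Tbxas1, 77.2% of Alox5, 83.2% of Alox5ap and 80.9% of Ltc4s (means of 3 libraries). Shares in the MCAO/R + WT group were close: 86.3%, 88.5%, 88.6%, 80.3%, 79.5% and 82.4% for the same genes. In WT mice the UMIs of Alox5 and Alox5ap were thus mostly in microglia-like cells, although their level was higher in neutrophil-like cells. After MCAO/R neutrophil-like cells carried 1.5% of Alox5 UMIs among WT and 11.9% among Lrg1-/- mice.

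In the Lrg1-/- libraries the microglia-like shares were lower. These groups also had larger shares of unnamed cells that scored close to microglia, given above, and the part of those cells was not tested. After sham surgery they were 45.5% for Ptgs1, 49.6% for Hpgds, 62.6% for Tbxas1 and 17.0% for Ltc4s, and after MCAO/R 53.5%, 52.0%, 61.1% and 33.4%. Choroid plexus epithelium-like cells carried 43.1% of Ltc4s and 38.1% of Ptgds UMIs in the sham + Lrg1-/- group. These libraries held 445 to 3160 choroid plexus epithelium-like cells each, counting both surgeries, against 24 to 200 in the WT libraries. Of Ptgs2 UMIs, endothelial-like cells carried 63.2% (sham) and 69.9% (MCAO/R) among WT mice and 53.9% (sham) and 40.3% (MCAO/R) among Lrg1-/- mice. Of Ptgds UMIs, oligodendrocyte-like cells of WT mice carried 80.4% (sham) and 85.8% (MCAO/R).

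**Figure D2:**
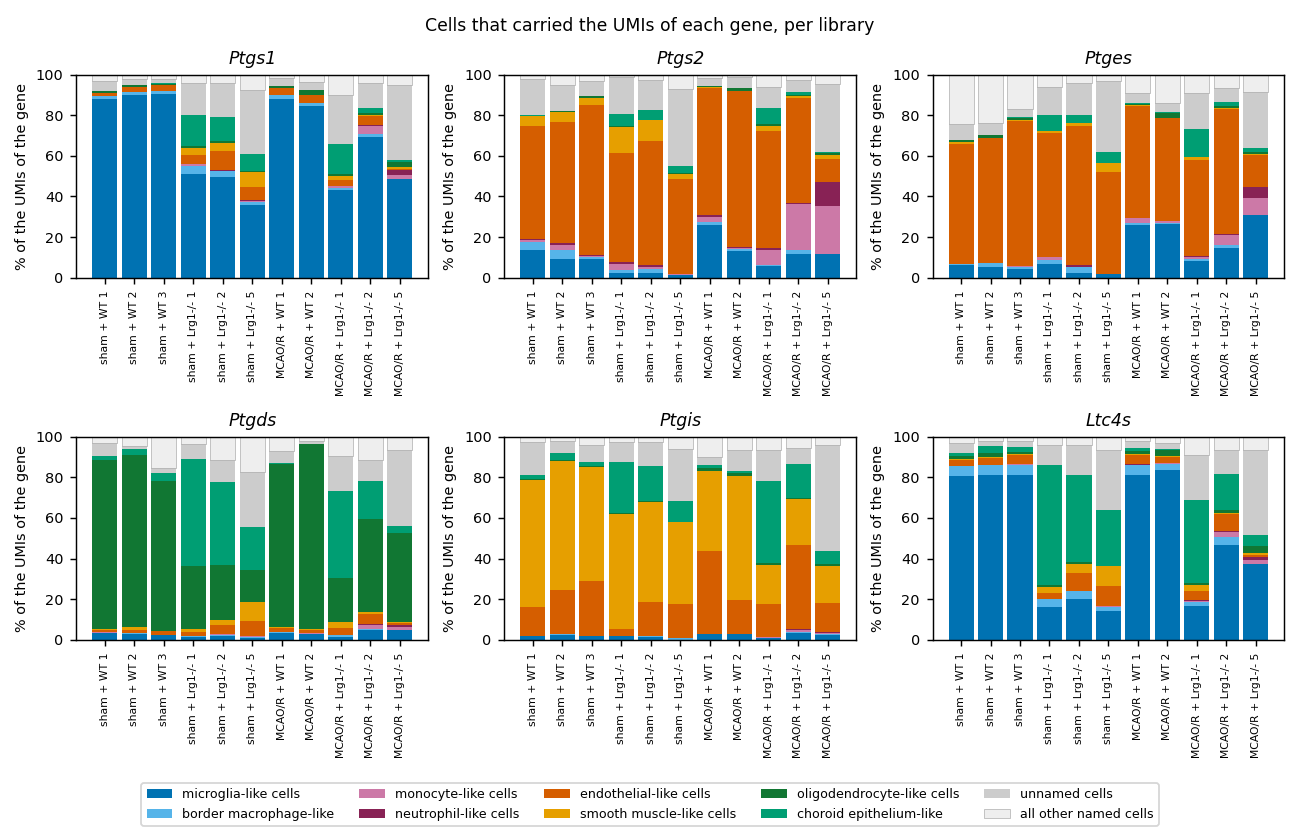
Percentage of the UMIs of 6 genes carried by each cell type (stacked colours, y axis from 0 to 100%) in each of the 11 libraries (x axis, group and replicate number). In WT libraries a single type carries most of Ptgs1, Ltc4s (microglia-like) and Ptgds (oligodendrocyte-like), and in Lrg1-/- libraries choroid plexus epithelium-like and unnamed cells carry larger shares.

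The design gave 5 comparisons, made in each cell type with edgeR's quasi-likelihood test, with p-values adjusted over all genes of the cell type (Benjamini-Hochberg). A gene was called when the adjusted p was below 0.05 and the natural log of the fold change exceeded 0.25 in size. The comparisons share groups, so their calls are not independent. With 2 or 3 libraries a group, groups can lie apart without a difference, and the share of all genes without overlap was not counted. Calls described in full were also fitted with 1 library left out and under other processing choices, and a choice is named beside a result where it ended the call, except that the fit with a replicate block is mostly given by counts at the end. Among them, thinned cells are cells drawn down to 1000 UMIs each, cells named singly took their type from their own markers and not from their cluster, and the unbalanced graph linked cells without equal numbers of neighbours per library. After MCAO/R in WT mice 8 of 107 tested pairs of gene and cell type were called higher and 2 lower, and over all genes 8.63% of pairs were called, 4.51% higher and 4.12% lower. After MCAO/R in Lrg1-/- mice 8 of 114 were higher and 8 lower, with 9.81% called over all genes (5.32% higher, 4.49% lower). Without MCAO/R + Lrg1-/- replicate 2 these were 8 higher and 2 lower of 119 tested pairs. Between genotypes after MCAO/R 20 of 109 were higher and 5 lower in Lrg1-/- mice, with 16.1% called over all genes (8.48% higher, 7.58% lower). Without MCAO/R + Lrg1-/- replicate 5 these calls were 15 higher and 10 lower of 122 tested pairs, and with cells named singly 23 higher and 14 lower of 174. After sham surgery 25 of 105 were higher and 2 lower, with 13.1% called over all genes (6.85% higher, 6.21% lower). The surgery effect differed between genotypes in 1 of 91 pairs, where it was lower in Lrg1-/- mice, with 1.59% called over all genes (0.830% higher, 0.759% lower). The median log2 fold change over the tested pairs was 0.16 for surgery in WT mice, 0.295 for surgery in Lrg1-/- mice, 0.75 for genotype after MCAO/R and 0.66 for genotype after sham surgery, whereas over all genes these medians were within 0.02 of 0. In the pairs whose higher group stood at or above 10% of the gene's highest cell type the medians were -0.353, -0.214, 0.565 and 0.177 in the same order, so the surgery medians changed sign with the level of the pairs. Between genotypes after MCAO/R 56 of the 109 pairs lay below 10%, against 24887 of 153332 over all genes. After sham surgery these were 60 of 105 against 25527 of 154010. Medians of all genes at like levels are not given here, so these medians do not set the 10 genes apart.

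In microglia-like cells of WT mice MCAO/R was followed by a fall of Ptgs1 and Hpgds and a rise of Ptgs2, Ptges and Alox5. Ptgs1, the constitutive cyclooxygenase, stood at 366, 348 and 384.5 CPM in the sham + WT libraries and at 263.5 and 200.9 CPM in the MCAO/R + WT libraries. It fell by 0.66 ± 0.16 on the log2 scale (SE, adjusted p = 0.0102, edgeR). Ptgs2, the inducible one, stood at 5.67, 7.12 and 6.22 CPM after sham surgery and at 51.1 and 13.8 CPM after MCAO/R, a rise of 2.36 ± 0.50 (adjusted p = 0.00417, edgeR). The groups overlapped for neither gene, but the MCAO/R + WT libraries lay far apart for Ptgs2. Ptges, which makes prostaglandin E2 from the cyclooxygenase product, rose from 0.924, 0.839 and 0.842 CPM to 13.4 and 9.06 CPM, by 3.69 ± 0.28 (adjusted p = 2.47e-06, edgeR). Ptges is described here after its values were seen, because its level in microglia-like cells was 8.46% of that in fibroblast-like cells, below the 10% set for full description. With 1 library left out the Ptges change lay between 3.38 and 3.91. The Ptgs2 call was lost without MCAO/R + WT replicate 1 (1.12, adjusted p = 0.126, edgeR) and the Ptgs1 call without MCAO/R + WT replicate 2 (adjusted p = 0.0784, edgeR). Over all genes of microglia-like cells 22.9% were called in this comparison (12.8% higher, 10.1% lower), beside 4 of the 10 genes higher and 2 lower.

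Hpgds, the haematopoietic prostaglandin D synthase, also fell in these cells, from 625, 585 and 616 CPM to 366 and 485 CPM (-0.52 ± 0.14, adjusted p = 0.0165, edgeR). All MCAO/R + WT libraries lay below all sham + WT libraries. Alox5 rose from 12.1, 10.6 and 14.1 CPM to 25.1 and 31.8 CPM (1.21 ± 0.33, adjusted p = 0.0177, edgeR), again without overlap. Tbxas1 showed no call, with 653.5, 873 and 1192 CPM after sham surgery and 813 and 566 CPM after MCAO/R (-0.39 ± 0.30, adjusted p = 0.387, edgeR), and the groups overlapped. Ltc4s, with 354, 336 and 338 CPM against 181 and 401 CPM, was not called either (adjusted p = 0.606, edgeR), its MCAO/R + WT libraries lying on both sides of the sham values. The Hpgds call was lost without sham + WT replicate 1 or 3 or MCAO/R + WT replicate 1, and the Alox5 call without sham + WT replicate 1 or 2 or MCAO/R + WT replicate 2 (highest adjusted p 0.191 and 0.0815, edgeR). The Hpgds call was also lost in thinned cells (-0.49, adjusted p = 0.0568, edgeR).

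In Lrg1-/- mice MCAO/R was followed by rises of Ptgs2, Ptges and Alox5ap and a fall of Hpgds in microglia-like cells. Ptgs2 went from 10.2, 9.45 and 16.5 CPM to 20.6, 70.8 and 28.3 CPM (1.82 ± 0.51, adjusted p = 0.0134, edgeR), with every MCAO/R library above every sham library. Ptges went from 2.70, 1.11 and 1.96 CPM to 6.24, 8.95 and 9.13 CPM (2.08 ± 0.32, adjusted p = 0.000280, edgeR), also without overlap. Alox5ap, the protein that presents arachidonic acid to 5-lipoxygenase, went from 155.5, 155 and 163 CPM to 184, 219 and 345 CPM (0.67 ± 0.18, adjusted p = 0.0103, edgeR), and the highest value was that of replicate 5, without which the change was 0.36, below the size set for a call (adjusted p = 0.0284, edgeR). In WT mice Alox5ap averaged 185 CPM after sham surgery and 248 CPM after MCAO/R, also without overlap but not called (0.42 ± 0.19, adjusted p = 0.139, edgeR), and the difference between the surgery effects did not pass (0.24 ± 0.27, adjusted p = 0.605, edgeR). Hpgds went from 412, 434 and 465 CPM to 281, 279 and 236 CPM (-0.72 ± 0.12, adjusted p = 0.000634, edgeR), a fall that held in 11 of 11 fits with 1 library left out. Ptgs1 was not called, with 253, 251 and 305 CPM against 252, 194 and 263 CPM (-0.19 ± 0.14, adjusted p = 0.327, edgeR), and the groups overlapped. The Ptgs2 call was lost without sham + Lrg1-/- replicate 1 or 2 or MCAO/R + Lrg1-/- replicate 2 (highest adjusted p 0.0761, edgeR). It was lost as well with cells named singly (1.105, adjusted p = 0.0791, edgeR) and in thinned cells (1.04, adjusted p = 0.107, edgeR), where the Alox5ap call was lost too (0.28, adjusted p = 0.282, edgeR). In this comparison 4 of the 10 genes were called higher and 2 lower, and over all genes of these cells 20.7% higher and 15.4% lower.

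Between genotypes, Hpgds, Ptgs1 and Alox5 were called lower in Lrg1-/- microglia-like cells in at least 1 comparison. After each surgery 2 of the 10 genes were lower, and over all genes of these cells 12.1% were lower after MCAO/R and 11.3% after sham surgery. Ptges and Ptgis were called higher after sham surgery, and no gene was after MCAO/R. Both stood below 10% of the gene's highest cell type, where 14.1% of such pairs over all genes and cell types were called higher. Hpgds was lower after sham surgery (-0.48 ± 0.12, adjusted p = 0.0142, edgeR) and after MCAO/R (-0.68 ± 0.14, adjusted p = 0.00323, edgeR), without overlap of the groups in either case. With 1 library left out the latter change lay between -0.8723 and -0.5174. Ptgs1 was lower after sham surgery (-0.44 ± 0.14, adjusted p = 0.0403, edgeR), where every Lrg1-/- library lay below every WT library, but after MCAO/R the groups overlapped (0.02 ± 0.16, adjusted p = 0.929, edgeR). Alox5 was lower after MCAO/R, at 7.71, 9.67 and 23.6 CPM against 25.1 and 31.8 CPM (-1.0 ± 0.33, adjusted p = 0.0437, edgeR), and after sham surgery it stood at 12.7, 11.1 and 14.9 CPM against 12.1, 10.6 and 14.1 CPM (0.05 ± 0.34, adjusted p = 0.931, edgeR). The test of the difference between the surgery effects of the genotypes did not pass for Alox5 (-1.05 ± 0.48, adjusted p = 0.184, edgeR) or for Ptgs1 (0.47 ± 0.21, adjusted p = 0.190, edgeR). The Alox5 call after MCAO/R was kept in 2 of 11 fits with 1 library left out, those without MCAO/R + Lrg1-/- replicate 5 and without MCAO/R + WT replicate 1, and its change ranged from -1.68 to -0.76. The sham calls were lost without sham + Lrg1-/- replicate 1 or 2 for Hpgds and without either of these or any sham + WT library for Ptgs1 (highest adjusted p 0.0621 and 0.147, edgeR). Alox5 lost its call in thinned cells (-0.84, adjusted p = 0.0787, edgeR) and Ptgs1 with the unbalanced graph (-0.45, adjusted p = 0.0520, edgeR). With a replicate block the sham calls of Hpgds and Ptgs1 were both lost. In that fit 7 pairs were called higher in Lrg1-/- mice after sham surgery and 0 lower.

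Ptges was the 1 gene whose surgery effect differed between genotypes, in microglia-like cells (-1.61 ± 0.44, adjusted p = 0.0415, edgeR). It was 1 of the 10 genes tested there, where 8.17% of all genes were called. The sham + Lrg1-/- values lay above the sham + WT values (1.17 ± 0.35, adjusted p = 0.0301, edgeR). This call was kept in 6 of 11 fits with 1 library left out and lost without sham + Lrg1-/- replicate 1 (0.70, adjusted p = 0.351, edgeR) or 5 or any sham + WT library, and with cells thinned to 1000 UMIs the change was -0.14. The MCAO/R values of Lrg1-/- and WT libraries met at 9.13 and 9.06 CPM (-0.44 ± 0.26, adjusted p = 0.234, edgeR). The sham + Lrg1-/- values of Ptges rest on 18, 6 and 5 UMIs. The difference in surgery effect was kept in 4 of 11 fits with 1 library left out, with a range from -1.93 to -1.14. It was lost without sham + Lrg1-/- replicate 1 or 5, MCAO/R + Lrg1-/- replicate 2, MCAO/R + WT replicate 1 or any sham + WT library. In thinned cells it was -0.42 (adjusted p = 0.938, edgeR), and with the unbalanced graph -1.47 (adjusted p = 0.0693, edgeR). In the same cells the fibroblast marker list summed to 11.5 to 16.2 CPM in the sham + WT libraries and 54.9 to 77.2 CPM in the sham + Lrg1-/- libraries, and the part of such RNA in the Ptges result was not tested.

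**Figure D3:**
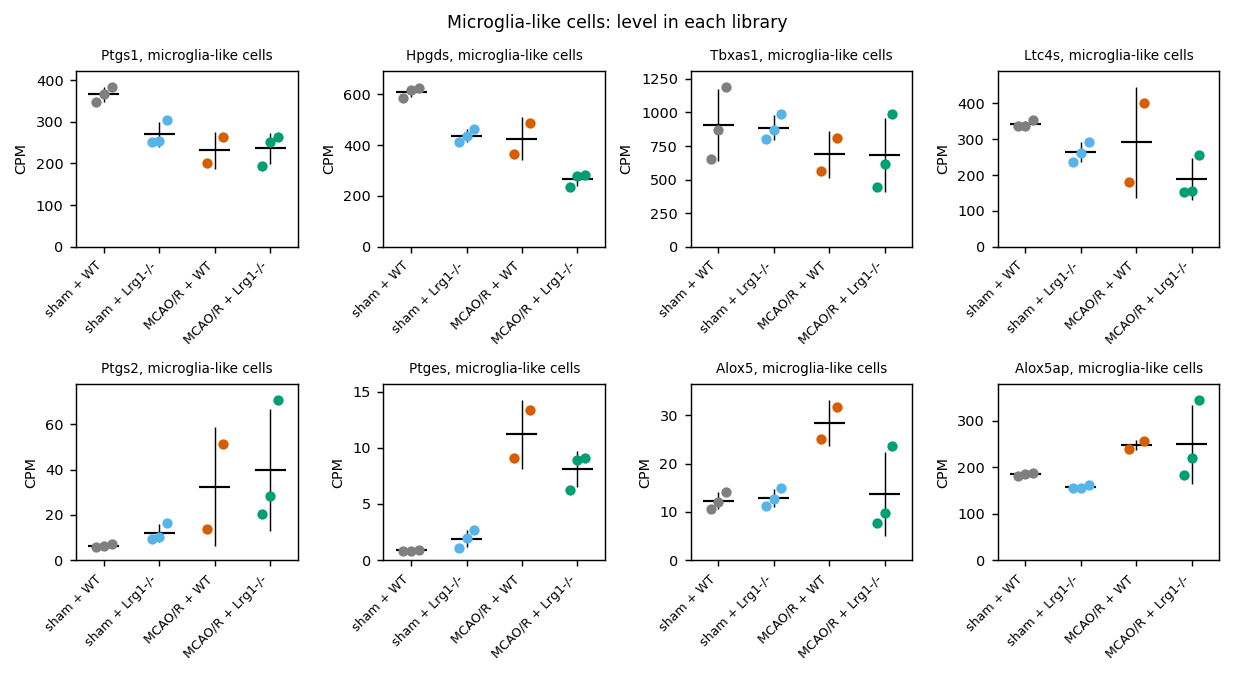
CPM of 8 genes in microglia-like cells (y axes from 0, linear) in the 4 groups (x axis). Points are libraries, the horizontal bar is the group mean and the vertical line 1 SD. Ptgs1 and Hpgds are lower, and Ptgs2, Ptges and Alox5 higher, in the 2 MCAO/R + WT libraries than in the 3 sham + WT libraries, while the groups overlap for Tbxas1 and Ltc4s.

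Border-associated macrophage-like cells, the macrophages of the meninges, perivascular spaces and choroid plexus, changed with surgery in 4 of the 9 genes tested in Lrg1-/- mice, 1 higher and 3 lower, where 10.9% of all genes were called (5.90% higher, 4.98% lower). For none of the 9 genes tested in these cells did the surgery effect pass the test of a difference between genotypes. Over all genes and cell types 1.59% of pairs were called in that test, so no call among so few genes is unremarkable. Alox5ap stood at 130, 174 and 146 CPM after sham surgery and 340 and 165 CPM after MCAO/R in WT mice, and at 211, 168 and 218 CPM and 352, 506 and 573 CPM in Lrg1-/- mice. It rose with surgery in Lrg1-/- mice (1.27 ± 0.26, adjusted p = 0.00675, edgeR) and was higher in Lrg1-/- than in WT mice after MCAO/R (0.91 ± 0.28, adjusted p = 0.0281, edgeR). The groups overlapped in neither comparison. The surgery effects of the genotypes did not pass the test of their difference (0.52 ± 0.37, adjusted p = 0.575, edgeR). In these cells the list of monocyte markers summed to 153 to 543 CPM in the MCAO/R + Lrg1-/- libraries, 49.7 to 83.4 CPM in the MCAO/R + WT libraries and 67.4 to 118 CPM in the sham + Lrg1-/- libraries, and its part in the Alox5ap result was not tested. The genotype call was lost without MCAO/R + Lrg1-/- replicate 2 or 5 or MCAO/R + WT replicate 2, where the change went down to 0.44 (adjusted p = 0.340, edgeR).

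Hpgds, Ptgs1 and Ltc4s fell with surgery in the same cells of Lrg1-/- mice. Hpgds went from 365, 305 and 305 CPM to 254, 197 and 193 CPM (-0.61 ± 0.17, adjusted p = 0.0354, edgeR). Ptgs1 went from 110, 93.6 and 109 CPM to 74.8, 57.4 and 50.7 CPM (-0.78 ± 0.20, adjusted p = 0.0197, edgeR), and Ltc4s from 299, 285 and 266 CPM to 200, 175 and 156 CPM (-0.69 ± 0.21, adjusted p = 0.0461, edgeR). None of these groups overlapped. In WT mice Hpgds stood at 451, 409 and 390 CPM against 242 and 331 CPM, Ptgs1 at 115, 102 and 86.3 CPM against 77.7 and 84.8 CPM, and Ltc4s at 402, 384 and 359 CPM against 182 and 341 CPM. None was called, and the changes were -0.54 for Hpgds, -0.32 for Ptgs1 and -0.55 for Ltc4s (adjusted p = 0.0873, 0.366 and 0.147, edgeR). The difference between the surgery effects of the genotypes was -0.07 for Hpgds, -0.46 for Ptgs1 and -0.14 for Ltc4s and passed for none (adjusted p = 0.951, 0.467 and 0.899, edgeR). Tbxas1 was lower in Lrg1-/- than in WT mice after MCAO/R, at 370, 368 and 509 CPM against 677 and 620 CPM (-0.65 ± 0.18, adjusted p = 0.0204, edgeR). After sham surgery the difference was of like size without a call (-0.61 ± 0.17, adjusted p = 0.0589, edgeR), with means of 487 and 740 CPM and no overlap. With 1 library left out the Hpgds, Ltc4s, Ptgs1 and Tbxas1 calls were kept in 4, 2, 9 and 8 of 11 fits. Ltc4s kept its call only without MCAO/R + WT replicate 1 or 2, and Hpgds only without these, sham + Lrg1-/- replicate 5 or MCAO/R + Lrg1-/- replicate 1. Ptgs1 lost its call without sham + Lrg1-/- replicate 1 or MCAO/R + Lrg1-/- replicate 2, and Tbxas1 without MCAO/R + Lrg1-/- replicate 1 or 2 or MCAO/R + WT replicate 1. The highest adjusted p was 0.140 for Hpgds, 0.133 for Ltc4s, 0.0984 for Ptgs1 and 0.106 for Tbxas1 (edgeR). In thinned cells all 4 calls were lost, with changes of -0.54 for Hpgds, -0.34 for Ltc4s, -1.24 for Ptgs1 and -0.59 for Tbxas1 (adjusted p = 0.306, 0.574, 0.0960 and 0.119, edgeR). With cells named singly the Hpgds and Ptgs1 calls were lost (-0.65 and -0.36, adjusted p = 0.104 and 0.230, edgeR), and with at least 50 cells per library the Ltc4s call (adjusted p = 0.0516, edgeR).

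Monocyte-like cells could be compared over surgery in Lrg1-/- mice and over genotype after sham surgery, since 1 MCAO/R + WT library had enough of them. Ptgs2 stood at 117, 77.9 and 29.5 CPM in the sham + Lrg1-/- libraries and at 186, 405 and 222 CPM in the MCAO/R + Lrg1-/- libraries (1.79 ± 0.53, adjusted p = 0.0358, edgeR), without overlap. The sham + WT libraries stood at 35.3, 178 and 41.3 CPM and the MCAO/R + WT library at 226 CPM. Hpgds stood at 57.7, 63.0 and 79.7 CPM in sham + Lrg1-/- and at 41.9, 33.5 and 37.3 CPM in MCAO/R + Lrg1-/- libraries (-0.84 ± 0.25, adjusted p = 0.0364, edgeR), again without overlap, and at 148, 91.2 and 120 CPM in the sham + WT libraries. The Ptgs2 call was lost without sham + Lrg1-/- replicate 2 or 5 or MCAO/R + Lrg1-/- replicate 2. The Hpgds call was lost without any sham + Lrg1-/- library or MCAO/R + Lrg1-/- replicate 2 or 5 (highest adjusted p 0.123 for Ptgs2 and 0.134 for Hpgds, edgeR). With cells named singly the Hpgds difference turned its direction (0.11, adjusted p = 0.873, edgeR). Its call was also lost with no filter on low counts (-0.67, adjusted p = 0.156, edgeR) and with the unbalanced graph (-0.48, adjusted p = 0.351, edgeR), where Ptgs2 lost its call as well (1.92, adjusted p = 0.105, edgeR).

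Neutrophil-like cells reached 20 cells in the 2 MCAO/R + WT libraries (44 cells each) and in MCAO/R + Lrg1-/- replicates 2 and 5 (290 and 1169 cells). Alox5 stood at 129 and 151 CPM in WT and at 76.7 and 78.1 CPM in Lrg1-/- libraries, without overlap, and was not called (-0.86 ± 0.33, adjusted p = 0.237, edgeR). The WT values rest on 21 and 26 UMIs. Alox5ap stood at 1709 and 2083 CPM against 3143 and 1501 CPM (0.29 ± 0.41, adjusted p = 0.741, edgeR), and Ptgs2 at 498 and 69.8 CPM against 121 and 219.7 CPM (-0.72 ± 0.66, adjusted p = 0.606, edgeR). For both the WT values lay within or around those of Lrg1-/- mice, and no difference was detectable with 2 libraries a group.

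Endothelial-like cells, which line the vessels, held both Ptgs2 and Ptges. Ptgs2 stood at 44.4, 82.2 and 63.4 CPM in the sham + WT, 192 and 138 CPM in the MCAO/R + WT, 165, 105 and 242 CPM in the sham + Lrg1-/- and 183, 307 and 195 CPM in the MCAO/R + Lrg1-/- libraries. It rose after MCAO/R in WT mice (1.38 ± 0.33, adjusted p = 0.0107, edgeR) and was higher in Lrg1-/- than in WT mice after sham surgery (1.42 ± 0.30, adjusted p = 0.00504, edgeR), so the sham + WT libraries stood alone below all others. Within Lrg1-/- mice the surgery groups overlapped (0.43 ± 0.30, adjusted p = 0.339, edgeR), and the difference between the surgery effects was not called (-0.95 ± 0.44, adjusted p = 0.345, edgeR). The WT surgery call was lost without MCAO/R + WT replicate 1 (adjusted p = 0.118, edgeR), and the sham genotype call held in 11 of 11 such fits. Both calls were lost in the fit with a replicate block (1.42 and 1.33, adjusted p = 0.0650 and 0.0809, edgeR). No label says whether equal replicate numbers share a preparation.

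Ptges followed surgery in endothelial-like cells of both genotypes. It stood at 17.1, 16.9 and 17.5 CPM in the sham + WT and at 44.2 and 29.3 CPM in the MCAO/R + WT libraries (1.1 ± 0.19, adjusted p = 0.00133, edgeR). With 1 library left out this change lay between 0.7384 and 1.365. In Lrg1-/- mice it went from 17.9, 15.8 and 25.3 CPM to 31.2, 36.2 and 31.6 CPM (0.78 ± 0.18, adjusted p = 0.0115, edgeR), lost without sham + Lrg1-/- replicate 2 or MCAO/R + Lrg1-/- replicate 2 (highest adjusted p 0.0658, edgeR) and in thinned cells (0.74, adjusted p = 0.203, edgeR). Neither comparison had overlapping groups. Between genotypes Ptges was not called after sham surgery (0.18 ± 0.18, adjusted p = 0.501, edgeR) or after MCAO/R (-0.15 ± 0.19, adjusted p = 0.594, edgeR).

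In fibroblast-like cells, which numbered 274 in all, Ptges stood at 196, 188 and 77.1 CPM in the sham + WT, 51.1 and 50.7 CPM in the MCAO/R + WT and 109 and 257 CPM in 2 MCAO/R + Lrg1-/- libraries. Neither the WT surgery difference (-1.55 ± 0.50, adjusted p = 0.244, edgeR) nor the genotype difference after MCAO/R (1.82 ± 0.55, adjusted p = 0.393, edgeR) was called. Ptgds varied widely among the same libraries, at 3009, 15715 and 26913 CPM, 24556 and 5837 CPM, and 35054 and 6263 CPM, and all groups overlapped.

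Smooth muscle-like cells were where Ptgis, the prostacyclin synthase, was highest. It stood at 334, 292.5 and 229 CPM in the sham + WT and 181 and 304 CPM in the MCAO/R + WT libraries, which overlapped. In Lrg1-/- mice it stood at 305, 244.5 and 147.5 CPM after sham surgery and at 83.1, 78.9 and 101 CPM after MCAO/R. It was thus lower after MCAO/R within Lrg1-/- mice (-1.41 ± 0.28, adjusted p = 0.0227, edgeR) and lower than in WT mice after MCAO/R (-1.47 ± 0.30, adjusted p = 0.0153, edgeR), with no overlap in either comparison. The difference between the surgery effects was not called (-1.17 ± 0.41, adjusted p = 0.626, edgeR). The genotype call was lost without MCAO/R + WT replicate 2 (-1.06, adjusted p = 0.163, edgeR) and the surgery call without sham + Lrg1-/- replicate 1 or 2 or MCAO/R + Lrg1-/- replicate 2 or 5 (highest adjusted p 0.101, edgeR). With the unbalanced graph the surgery call was lost too (-1.31, adjusted p = 0.103, edgeR).

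Ptgs2 in these cells was higher in Lrg1-/- than in WT mice after MCAO/R. It stood at 8.52 and 3.19 CPM in the MCAO/R + WT and 31.5, 57.0 and 40.5 CPM in the MCAO/R + Lrg1-/- libraries (2.91 ± 0.56, adjusted p = 0.0124, edgeR), without overlap. The sham libraries stood at 25.1, 39.2 and 17.8 CPM (WT) and 73.6, 67.7 and 27.9 CPM (Lrg1-/-). The MCAO/R + WT libraries lay below all sham + WT libraries without a call (-2.23 ± 0.56, adjusted p = 0.0593, edgeR), the surgery groups of Lrg1-/- mice overlapped (-0.37 ± 0.39, adjusted p = 0.664, edgeR), and the difference between these surgery effects was not called (1.85 ± 0.68, adjusted p = 0.650, edgeR). Ptgs1 was higher in Lrg1-/- mice after sham surgery, at 23.9, 34.2 and 51.7 CPM against 12.4, 9.05 and 8.16 CPM (1.90, adjusted p = 0.02, edgeR). Ltc4s was also higher there, at 57.0, 107 and 163 CPM against 20.5, 17.3 and 16.5 CPM (2.59, adjusted p = 0.00934, edgeR). Within these cells the microglia marker list summed to 498 to 626 CPM in the sham + WT, 390 to 528 CPM in the MCAO/R + WT, 1714 to 4438 CPM in the sham + Lrg1-/- and 1076 to 4026 CPM in the MCAO/R + Lrg1-/- libraries. The choroid plexus list, another class in which Ltc4s was high, summed to 308 to 516, 88.1 to 220, 19437 to 39311 and 5532 to 36403 CPM in the same order, and the endothelial list to 327 to 377, 373 to 374, 925 to 4488 and 329 to 2736 CPM. The part of these RNAs in the Ptgs1, Ptgs2 and Ltc4s results was not tested. Without 1 library the Ptgs2 call was lost for MCAO/R + WT replicate 2 (adjusted p = 0.149), the Ltc4s call for sham + WT replicate 3 (adjusted p = 0.0536) and the Ptgs1 call for sham + Lrg1-/- replicate 5 or sham + WT replicate 2 or 3 (highest adjusted p 0.0854, edgeR). With cells named singly Ptgs1 lost its call (1.02, adjusted p = 0.236, edgeR).

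Pericyte-like cells had few Ptgs2 UMIs: 0, 3 and 1 in the sham + WT, 9 and 3 in the MCAO/R + WT, 0 and 3 in the sham + Lrg1-/- and 33 and 2 in the MCAO/R + Lrg1-/- libraries. The level was higher in Lrg1-/- than in WT mice after MCAO/R, at 35.8 and 12.4 CPM against 3.79 and 1.01 CPM (3.63 ± 0.73, adjusted p = 0.00253, edgeR). Without MCAO/R + Lrg1-/- replicate 2 the call was lost (adjusted p = 0.570, edgeR). The same held with cells named singly (1.22, adjusted p = 0.253, edgeR).

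Ptgds, known as a product of myelinating and leptomeningeal cells, rose in oligodendrocyte-like cells after MCAO/R in WT mice. It stood at 8145, 8861 and 6910 CPM in the sham + WT and at 15605 and 22760 CPM in the MCAO/R + WT libraries (1.27 ± 0.35, adjusted p = 0.0152, edgeR). In Lrg1-/- mice it stood at 5323, 5921 and 7465 CPM after sham surgery and 4852, 7764 and 15642 CPM after MCAO/R, and these groups overlapped (0.60 ± 0.32, adjusted p = 0.231, edgeR). After MCAO/R it was lower in Lrg1-/- than in WT mice (-1.03 ± 0.35, adjusted p = 0.0403, edgeR), although MCAO/R + Lrg1-/- replicate 5 lay slightly above the lower WT library. The difference between the surgery effects was not called (-0.67 ± 0.47, adjusted p = 0.516, edgeR). The genotype call was kept in 2 of 11 fits with 1 library left out, those without MCAO/R + Lrg1-/- replicate 5 and MCAO/R + WT replicate 1, with changes from -1.60 to -0.71. The WT surgery call was lost without sham + WT replicate 3 or MCAO/R + WT replicate 2 (highest adjusted p 0.122, edgeR). The genotype call was lost under DESeq2's Wald test, with mitochondrial UMIs under 10% and with the unbalanced graph (adjusted p = 0.0898, 0.0820 and 0.0872).

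Choroid plexus epithelium-like cells changed in Ltc4s with both genotype and surgery. The level was 171, 204 and 240 CPM in the sham + WT, 132 and 102.5 CPM in the MCAO/R + WT, 284, 351.5 and 328 CPM in the sham + Lrg1-/- and 170, 168 and 187.5 CPM in the MCAO/R + Lrg1-/- libraries. It was higher in Lrg1-/- mice after sham surgery (0.65 ± 0.17, adjusted p = 0.0171, edgeR) and fell with surgery in Lrg1-/- mice (-0.87 ± 0.17, adjusted p = 0.0172, edgeR). In WT mice the surgery difference was of like size without passing the test (-0.79 ± 0.21, adjusted p = 0.0937, edgeR), and the groups overlapped in none of these comparisons. Ptgis was higher after sham surgery in Lrg1-/- mice, at 31.3, 31.6 and 27.0 CPM against 16.02, 22.1 and 19.98 CPM (0.62 ± 0.21, adjusted p = 0.0460, edgeR), and so was Ptgs1, at 24.6, 37.6 and 40.6 CPM against 13.2, 16.2 and 14.5 CPM (1.2, adjusted p = 0.0131, edgeR). In these cells the microglia list summed to 696 to 732 CPM in the sham + WT and 1889 to 3357 CPM in the sham + Lrg1-/- libraries, and its part in the Ptgs1 result was not tested. Ptgis kept its call in 4 of 11 fits with 1 library left out, those without an MCAO/R + WT library or MCAO/R + Lrg1-/- replicate 1 or 5 (highest adjusted p 0.134, edgeR). Ptgs1 lost its call without sham + WT replicate 2 (adjusted p = 0.0546, edgeR). The Ltc4s surgery call was lost without sham + Lrg1-/- replicate 2 or 5 or MCAO/R + Lrg1-/- replicate 2, and its genotype call without sham + Lrg1-/- replicate 2 or 5 or sham + WT replicate 1 or 2 (highest adjusted p 0.111 and 0.0698, edgeR). The genotype call of Ltc4s was lost in thinned cells (0.54, adjusted p = 0.135, edgeR). There Ptgs1 and Ptgis lost their calls too (1.38 and 0.44, adjusted p = 0.102 and 0.641, edgeR), as they did with cells named singly (0.55 and 0.52, adjusted p = 0.0953 and 0.124, edgeR). Ptgis was also lost with doublets kept, with mitochondrial UMIs under 10% and with the unbalanced graph (adjusted p = 0.0645, 0.190 and 0.0570, edgeR).

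Ltc4s was called higher in Lrg1-/- mice in further cell types. The choroid plexus list was higher there, as it was in 14 of 14 other cell types whether or not Ltc4s was called. After sham surgery it stood at 33.0, 51.2 and 81.9 CPM against 26.6, 27.7 and 24.3 CPM in endothelial-like cells (1.07, adjusted p = 0.00994, edgeR), at 89.2, 70.3 and 149.6 CPM against 41.6, 27.9 and 42.4 CPM in astrocyte-like cells (1.47, adjusted p = 0.0291) and at 57.2, 85.2 and 81.9 CPM against 10.2, 14.7 and 38.1 CPM in T cell-like cells (1.89, adjusted p = 0.0154). In pericyte-like cells it stood at 70.1 and 74.2 CPM against 31.9, 16.1 and 23.6 CPM (1.60, adjusted p = 0.0365, edgeR). After MCAO/R it stood at 21.1, 20.9 and 52.5 CPM against 9.41 and 16.9 CPM in oligodendrocyte-like cells (1.30, adjusted p = 0.0138, edgeR). No groups overlapped in these comparisons. The choroid plexus list summed to 249 to 524 CPM in the sham + WT and 6094 to 15591 CPM in the sham + Lrg1-/- endothelial-like cells, and to 87.5 to 184 CPM and 3311 to 6078 CPM in the oligodendrocyte-like cells after MCAO/R; its part in the Ltc4s results was not tested. The endothelial call held in 11 of 11 fits with 1 library left out. The others were kept in 7 of 11 fits for astrocyte-like and pericyte-like, 8 of 11 for T cell-like and 9 of 11 for oligodendrocyte-like cells. They were lost without sham + Lrg1-/- replicate 5 or any sham + WT library in astrocyte-like cells, without sham + Lrg1-/- replicate 5 or sham + WT replicate 1 or 2 in T cell-like cells, without sham + Lrg1-/- replicate 1 or 2 or sham + WT replicate 2 or 3 in pericyte-like cells and without MCAO/R + Lrg1-/- replicate 5 or MCAO/R + WT replicate 1 in oligodendrocyte-like cells (highest adjusted p 0.141, 0.0772, 0.272 and 0.0837, edgeR). With the unbalanced graph the Ltc4s calls of endothelial-like (0.50), T cell-like (1.04), astrocyte-like (0.94) and oligodendrocyte-like cells (1.06) were lost (adjusted p = 0.0944, 0.217, 0.101 and 0.0940, edgeR). In thinned cells those of astrocyte-like and pericyte-like cells were lost (adjusted p = 0.162 and 0.263, edgeR), and with cells named singly that of T cell-like cells (1.27, adjusted p = 0.138, edgeR).

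**Figure D4:**
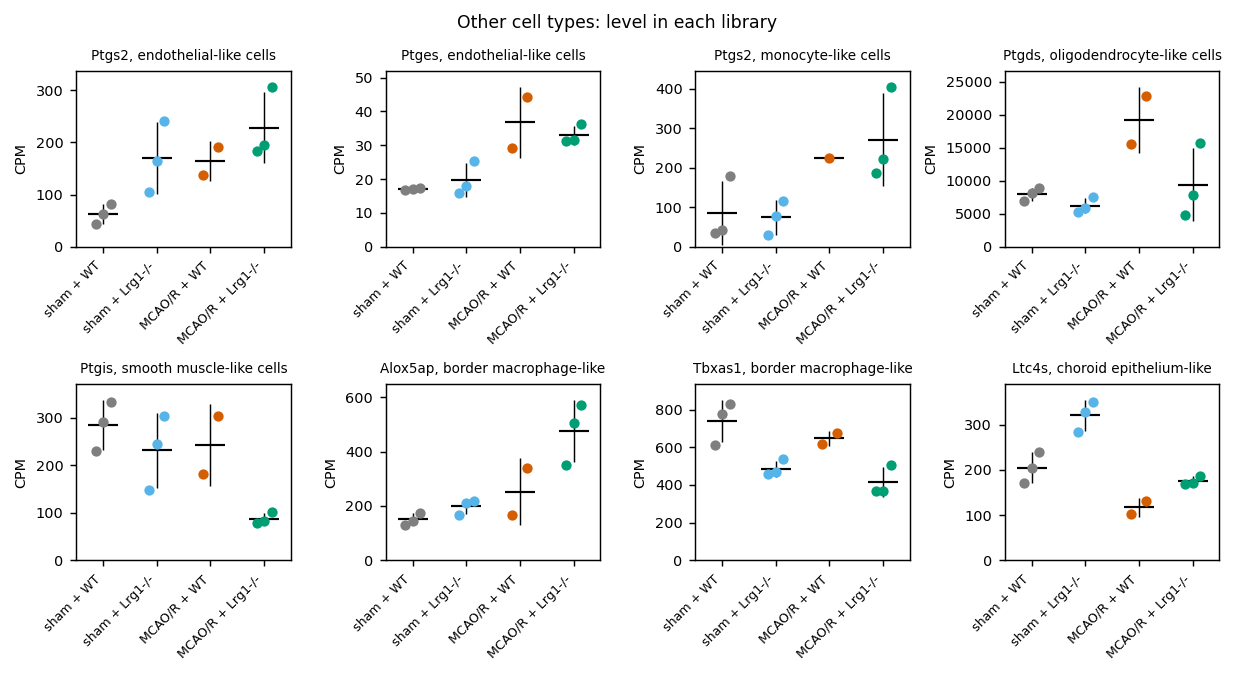
CPM of 7 genes in 6 other cell types (8 panels, y axes from 0, linear) in the 4 groups (x axis). Points are libraries, the horizontal bar is the group mean and the vertical line 1 SD where a group has more than 1 library. Endothelial Ptgs2 is lowest in the 3 sham + WT libraries, and Ptgis in smooth muscle-like cells is lowest in the 3 MCAO/R + Lrg1-/- libraries.

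Many of the calls between genotypes fell where a gene stood far below the level in its highest cell type. Of the pairs whose higher group stood below 10% of the gene's highest cell type, 14 of 56 were called higher and 0 lower in Lrg1-/- mice after MCAO/R, when 13.9% of such pairs over all genes were called higher and 2.32% lower. After sham surgery 15 of 60 were called higher and 0 lower, against 14.1% and 1.87% over all genes. In the pairs at or above 10% the calls were 6 higher and 5 lower of 53 after MCAO/R (7.43% and 8.60% over all genes), and 10 higher and 2 lower of 45 after sham surgery (5.42% and 7.07%).

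Alox5ap made up most of the low-level calls after MCAO/R, in 8 cell types with changes from 1.47 to 2.77. In oligodendrocyte-like cells it stood at 10.1 and 8.84 CPM in the MCAO/R + WT and at 25.8, 31.9 and 68.9 CPM in the MCAO/R + Lrg1-/- libraries (2.22, adjusted p = 0.000423, edgeR). In smooth muscle-like cells it stood at 12.3 and 10.5 CPM against 103, 31.4 and 104 CPM (2.77, adjusted p = 0.0171, edgeR), with no overlap in either type. These levels were 2.002% and 3.76% of that in neutrophil-like cells. The neutrophil list summed to 20.4 to 21.3 CPM in the MCAO/R + WT and 27.0 to 427 CPM in the MCAO/R + Lrg1-/- oligodendrocyte-like cells, and the microglia list to 333 to 454 CPM and 1038 to 2149 CPM. Their part in the Alox5ap calls was not tested.

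The remaining low-level calls after MCAO/R were of Hpgds and Ptgs1 in 2 cell types each and of Ptgs2 and Tbxas1 in 1. Above the 10% level, neuroblast- and neuron-like cells had Hpgds at 84.99, 45.05 and 55.9 CPM in Lrg1-/- against 25.5 and 24.1 CPM in WT libraries (1.23, adjusted p = 0.0363, edgeR), and Tbxas1 at 79.8, 119 and 239 CPM against 43.6 and 28.8 CPM (2.11, adjusted p = 0.0123, edgeR). Ptgs1 in smooth muscle-like cells, at 9.99% of its highest type and so counted below the line, stood at 34.6, 8.27 and 41.1 CPM against 5.45 and 5.42 CPM (2.31, adjusted p = 0.0330, edgeR). Every Lrg1-/- library lay above every WT library in these comparisons. The microglia list in the neuroblast- and neuron-like cells summed to 2360 to 3765 CPM in the MCAO/R + Lrg1-/- and 760 to 1004 CPM in the MCAO/R + WT libraries, and its part was not tested. Without 1 library the Hpgds call was kept in 4 of 11 fits, the Tbxas1 call in 9 and the Ptgs1 call in 6, and all were lost without MCAO/R + WT replicate 1 or 2 (highest adjusted p 0.226, 0.137 and 0.192, edgeR). Hpgds was also lost without any sham + WT library or MCAO/R + Lrg1-/- replicate 1 or 5, and Ptgs1 without sham + WT replicate 2 or MCAO/R + Lrg1-/- replicate 1 or 5. With cells named singly all 3 were lost (0.40 for Hpgds, 0.73 for Tbxas1 and 2.05 for Ptgs1, adjusted p = 0.506, 0.339 and 0.0785, edgeR), and in thinned cells Hpgds and Ptgs1 (adjusted p = 0.120 and 0.219, edgeR).

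After sham surgery the low-level calls were of Alox5ap and Ptgis in 4 cell types each, Hpgds and Ptgs2 in 3 each and Ptges in microglia-like cells. Ptgis in microglia-like cells stood at 0.686, 1.04 and 0.896 CPM in the sham + WT and at 6.59, 4.63 and 0.784 CPM in the sham + Lrg1-/- libraries (2.32, adjusted p = 0.00236, edgeR), and the groups overlapped. The smooth muscle list in the same cells summed to 102 to 132 CPM and 323 to 444 CPM, and its part was not tested. Ptgs2 in choroid plexus epithelium-like cells rested on 1, 1 and 2 UMIs in the sham + WT libraries, at 0.552, 0.369 and 1.21 CPM, against 7.96, 11.45 and 23.6 CPM in the sham + Lrg1-/- libraries (4.36, adjusted p = 0.00362, edgeR), without overlap.

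Of the pairs below 10%, 3 of 67 were called higher and 0 lower with surgery in WT mice. In Lrg1-/- mice 3 of 60 were higher and 1 lower. Over all genes at any level 4.51% of pairs were called higher in WT and 5.32% in Lrg1-/- mice, and the share at this low level is not given here. Surgery gave 3 low-level calls of Ptgds, in microglia-like cells of both genotypes and in pericyte-like cells of WT mice. In microglia-like cells Ptgds rose in WT mice from 132, 144.5 and 67.9 CPM to 211 and 687.5 CPM (1.97 ± 0.59, adjusted p = 0.0284, edgeR) and in Lrg1-/- mice from 126, 125 and 135 CPM to 168, 179 and 801 CPM (1.58 ± 0.56, adjusted p = 0.0396, edgeR). The oligodendrocyte list in these cells summed to 497 to 758 CPM in the sham + WT, 455 to 954 CPM in the MCAO/R + WT, 809 to 1468 CPM in the sham + Lrg1-/- and 485 to 1163 CPM in the MCAO/R + Lrg1-/- libraries. Its part in the Ptgds result was not tested. In pericyte-like cells of WT mice Ptgds went from 188.5, 185 and 84.6 CPM to 263 and 853.5 CPM (1.87 ± 0.45, adjusted p = 0.0162, edgeR). None of these Ptgds groups overlapped. In Lrg1-/- mice Alox5ap also rose with surgery in oligodendrocyte-like cells (1.54, adjusted p = 0.0101, edgeR) and Ptgis fell in microglia-like cells (-1.65, adjusted p = 0.0106, edgeR).

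**Figure D5:**
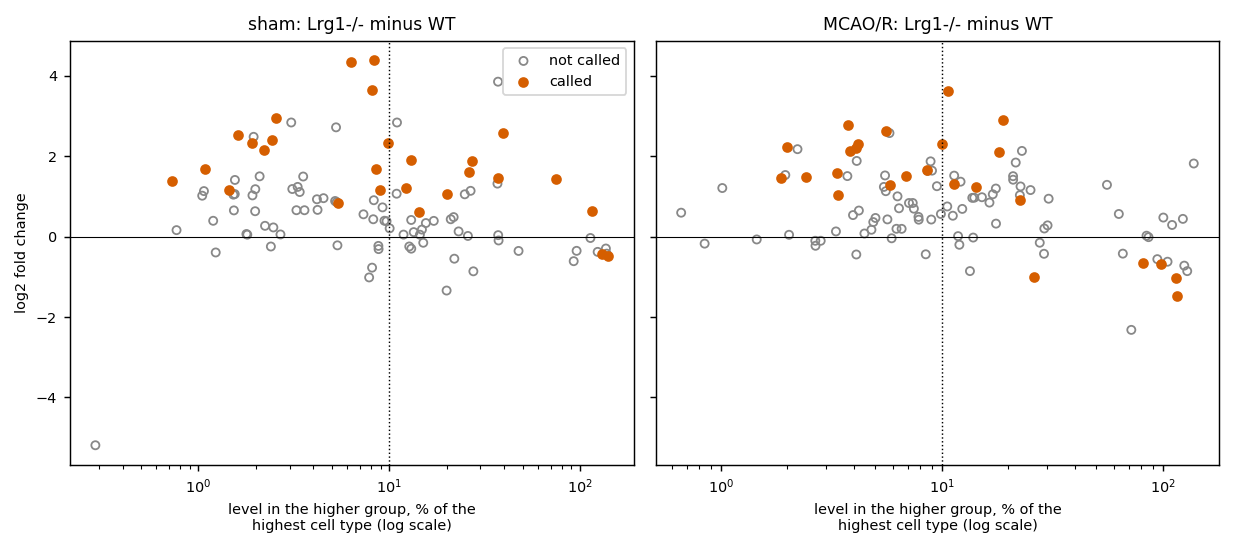
Log2 fold change of Lrg1-/- over WT (y axis) for each tested pair of gene and cell type after sham surgery (left) and MCAO/R (right), against the level in the higher group as a percentage of the gene's highest cell type (x axis, log scale, dotted line at 10%). Filled points are called pairs. Left of the line all called points lie above 0, 15 after sham surgery and 14 after MCAO/R.

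Beside the 10 genes, 42 others of the pathway were examined (arachidonic acid release, other synthases, breakdown and transport, receptors), of which 40 could be tested in at least 1 cell type. After MCAO/R in WT mice 14 of 278 pairs were higher and 28 lower (4.51% and 4.12% over all genes), and in Lrg1-/- mice 19 of 299 higher and 22 lower (5.32% and 4.49%). Between genotypes 44 of 276 were higher and 13 lower after MCAO/R (8.48% and 7.58% over all genes), and 27 of 280 higher and 11 lower after sham surgery (6.85% and 6.21%). Hpgd, which inactivates prostaglandins, was lower after MCAO/R in 5 cell types in each genotype. In monocyte-like cells of Lrg1-/- mice Hpgd fell from 117 ± 13.4 CPM to 21.7 ± 6.29 CPM (SD, n = 3 each), by 2.56 on the log2 scale (adjusted p = 0.000127, edgeR), and in red blood cell-like cells by 1.87 (adjusted p = 0.0114, edgeR). After sham surgery Hpgd was higher in Lrg1-/- mice in 5 cell types.

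Several other pathway genes stood out by the size of their change. Alox12, the 12-lipoxygenase, fell in endothelial-like cells of WT mice from 22.2 ± 1.77 CPM (SD, n = 3) to 2.09 ± 0.536 CPM (SD, n = 2), by 3.43 (adjusted p = 1.86e-05, edgeR). In the same comparison Ptgfr, the receptor of prostaglandin F2 alpha, fell by 2.63 (adjusted p = 0.0297, edgeR) on 35 UMIs in the sham + WT and 4 in the MCAO/R + WT libraries together, and Mgst2 rose in oligodendrocyte-like cells by 4.21 (adjusted p = 3.36e-05, edgeR). Abcc4, which exports prostaglandins, and the prostaglandin E2 receptor Ptger4 were higher in 2 cell types each. Cyp4f18, which inactivates leukotriene B4, rose in microglia-like cells by 3.97 in WT mice and by 3.35 in Lrg1-/- mice (adjusted p = 0.000824 and 0.00370, edgeR). The levels after MCAO/R were 3.02% and 4.48% of that in the gene's highest cell type, and the part of RNA from other cells was not tested. In oligodendrocyte-like cells Cyp4f18 was called between 0 UMIs in the sham + Lrg1-/- and 98 UMIs in the MCAO/R + Lrg1-/- libraries together, and in choroid plexus epithelium-like cells between 0 in the sham + WT and 68 in the sham + Lrg1-/- libraries. Abcc1, which exports leukotriene C4, was higher after MCAO/R in 4 cell types of Lrg1-/- mice.

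Between genotypes after MCAO/R, Akr1b3 and Ptgr1 were each higher in Lrg1-/- mice in 5 cell types and Abcc4 lower in 3. In oligodendrocyte-like cells the prostaglandin transporter Slco2a1 fell by 2.36 and Mgst2 by 2.17 relative to WT (adjusted p = 0.00535 and 0.00386, edgeR). Pla2g5, a secreted phospholipase A2, was higher in oligodendrocyte-like (4.97) and microglia-like cells (3.65) on 1 and 5 UMIs in the WT libraries together, and after sham surgery in smooth muscle-like cells (4.95) on 2. Also after sham surgery Mgll was lower in 4 cell types, the thromboxane receptor Tbxa2r was lower in pericyte-like cells (-1.51, adjusted p = 0.0209, edgeR) and Abcc1 lower in choroid plexus epithelium-like cells (-1.19, adjusted p = 0.0124, edgeR). The surgery effect differed between genotypes in 4 of 248 pairs, all higher in Lrg1-/- mice, when 1.59% of pairs over all genes were called. Among them were Ptgr1 (1.51 ± 0.30, adjusted p = 0.0132) and Akr1b3 (1.13 ± 0.20, adjusted p = 0.00748, edgeR), both in microglia-like cells. The others were of Abcc1 and Mgll. In microglia-like cells alone the share of all genes called in that test was larger, as given above for Ptges. How these 4 calls fared in other fits is not given here.

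The genes whose mean levels over the 16 cell types were most like those of each member were taken by Pearson correlation of log2(CPM + 1). The 16 points share libraries, so r is a description. For Ptgs1 they were P2ry13 (r = 0.952), Lyzl4 (0.945) and P2ry12 (0.941), for Hpgds C1qc (0.974), Abcc3 (0.972) and Fcrls (0.971), and for Tbxas1 C3ar1 (0.980), Slc7a8 (0.976) and Pla2g15 (0.975). For Alox5 they were Cd33 (0.959), Siglece (0.956) and Adam8 (0.946), for Alox5ap Ptafr (0.982), Fcgr4 (0.980) and Tlr13 (0.979), and for Ltc4s Ctsd (0.877), C1qb (0.877) and Ccl12 (0.874). For Ptgs2 they were Xdh (0.895), Pi16 (0.880) and Tgm2 (0.868), and for Ptges Chst15 (0.889), Gpr182 (0.866) and Timp1 (0.826). For Ptgds they were Apod (0.906), Sema3d (0.895) and Serpind1 (0.882), and for Ptgis Itga3 (0.922), Trnp1 (0.883) and Slc16a11 (0.867). Among the 10 genes themselves the most alike were Hpgds and Tbxas1 (0.961), Ptgs1 and Hpgds (0.933) and Alox5 and Alox5ap (0.925).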

How the data were processed

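The deposited files held raw UMI counts per gene and barcode, 1 matrix per library. Per the file headers these counts come from Cell Ranger 7.0.1; the submitters' processing notes name Cell Ranger, STAR and mm10, and the paper's methods give another Cell Ranger version. Here, doublets were scored per library (highest 6% removed in the 6 libraries where the automatic threshold marked under 0.5%; 6418 cells), cells were clustered on 2000 variable genes and 15 principal components with 3 neighbours per library (Leiden, resolution 2.0), without the 10 genes, the pathway list, haemoglobin or mitochondrial genes, and sub-clusters were named from at least 3 detected markers. Libraries shared at most 146 barcodes (1.15% of the smaller). Counts were summed per library and cell type (at least 20 cells, at least 2 libraries a group, or 1 where a library was left out) and fitted with edgeR 4.0.16 (TMM, glmQLFit, all groups in 1 fit) in R 4.3.3. Scripts used Python 3.11.15. Genes with low counts were removed by edgeR's filter, so 7 to 16 of 16 cell types were tested per gene. The fit was tested on simulated data with known changes. Genes and lists were chosen with earlier results of these data known. Pairs of gene and cell type were described in full in the gene's highest cell type, or where called at 10% or more of that level; other pairs are given by counts, with examples chosen after their values were seen. Of the pathway list, the genes called in most cell types and those with the largest changes were named. Deviations of same-numbered libraries from their group means correlated above 0.1 in 22 of 150 cases (median 0.00201), and those of differently numbered libraries in 65 of 374 (median 0.00159). Deviations within groups of 2 or 3 libraries are tied to each other, so this check cannot exclude a preparation shared by equal numbers. Alternatives were DESeq2 1.42.0, other size factors, no filter, a replicate block, doublets kept, mitochondrial UMIs under 10%, haemoglobin and mitochondrial genes removed, each cell named on its own, an unbalanced graph, cells thinned to 1000 UMIs, at least 50 cells, and each library left out.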

Additional observations from a re-analysis of the deposited data

Results flagged for a closer look

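The surgery effect on Ptges in microglia-like cells differed between genotypes by a test of the difference itself (-1.61 on the log2 scale, adjusted p = 0.0415, edgeR's quasi-likelihood test), with 1 of 91 tested pairs called, when 1.59% of pairs over all genes and 8.17% of all genes in microglia-like cells were. It was 12.9-fold in WT mice and 4.22-fold in Lrg1-/- mice. The call was lost when cells were thinned to 1000 UMIs (-0.42, adjusted p = 0.938, edgeR), with the unbalanced graph (-1.47) and with a replicate block (-1.55), and without sham + Lrg1-/- replicate 1 or 5, MCAO/R + Lrg1-/- replicate 2, MCAO/R + WT replicate 1 or any 1 of the sham + WT libraries. In these last fits, each with 1 library left out, the difference lay between -1.67 and -1.14. No group of 4 or more libraries existed in which a single outlying library could be tested.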

How the results depend on the processing

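Calls of the 10 genes, higher and lower together, were 10 (surgery, WT), 16 (surgery, Lrg1-/-), 25 (genotype, MCAO/R), 27 (genotype, sham) and 1 (difference of surgery effects). Without a filter on low counts they were 33, 39, 48, 48 and 4, of 120, 130, 120, 120 and 100 tested pairs against 107, 114, 109, 105 and 91. With the replicate block, whose numbers no label ties to a preparation, they were 15 for genotype after MCAO/R (of 100 tested pairs), 7 for genotype after sham (of 105) and 0 for the difference (of 91). The surgery counts stayed within 1.5 times, at 13 in WT and 18 in Lrg1-/- mice, but the calls were partly others. They held 7 of the 10 main calls in WT and 10 of the 16 in Lrg1-/- mice. In Lrg1-/- mice 13 were then higher and 5 lower, against 8 and 8 in the main fit. Naming each cell on its own gave 34 for surgery in WT mice, 45 for genotype after sham and 3 for the difference, each of 157 tested pairs. Thinning cells to 1000 UMIs gave 10 for surgery in Lrg1-/- mice (of 85 tested pairs), 12 for genotype after sham (of 77) and 0 for the difference (of 72). DESeq2's Wald test gave 3 and the unbalanced graph 0 for the difference. Each fit with 1 library left out allowed groups of 1 library and tested more pairs than the main fit. The counts therefore do not cover the same pairs, and the share called over all genes in these settings is not given here. With each library left out the counts ranged from 7 to 17, 8 to 20, 12 to 31, 10 to 35 and 0 to 3. Counts that moved by over 1.5 times were, for surgery in WT mice, 17 without MCAO/R + Lrg1-/- replicate 5. For surgery in Lrg1-/- mice they were 9 and 8 without sham + Lrg1-/- replicates 1 and 2 and 10 without MCAO/R + Lrg1-/- replicate 2. For genotype after MCAO/R the count was 12 without MCAO/R + WT replicate 2. For genotype after sham it was 17 without sham + Lrg1-/- replicate 5 and 16, 10 and 14 without sham + WT replicates 1, 2 and 3. The difference had 0 calls without sham + Lrg1-/- replicate 1, MCAO/R + Lrg1-/- replicate 2 or any sham + WT library, and 3 without MCAO/R + Lrg1-/- replicate 5. The highest cell type was unchanged for 10 genes under 5 of the 6 alternatives tried for it, and for 8 when each cell was named on its own (Ptgs2 then highest in endothelial-like and Ltc4s in microglia-like cells). With 1 library left out it was unchanged for 9 to 10, Ptgs2 moving to endothelial-like cells without MCAO/R + WT replicate 1.

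Over the called pairs described in full, 378 of the fits with 1 library left out kept direction and call and 139 kept direction only. Of the refits under other choices 438 kept direction and call, 68 kept direction only and 2 reversed. The reversals were Hpgds in monocyte-like cells between MCAO/R + Lrg1-/- and sham + Lrg1-/- mice with each cell named on its own (0.11), and Ptges in microglia-like cells between the sham groups with cells thinned (-0.14). The cause was not tested. The fewest UMIs were held by the 3 sham + Lrg1-/- libraries and MCAO/R + Lrg1-/- replicate 1, so values of low genes rest on few UMIs there.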
